A study of Cyprinus carpio with 18 samples.

Results

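The sequences described here are the long predicted small RNAs of a common carp (Cyprinus carpio) developmental series, meaning the rows of 24 to 27 bases in the deposited count lists that carry no microRNA name and are identified by their own sequence. There were 290 such sequences among 2742 unnamed predicted rows and 2888 rows in all. They comprised 282 sequences of 24 bases, 5 of 25, 2 of 26 and 1 of 27, and none of the 2742 predicted rows was longer than 27 bases. The remaining 2452 predicted rows held 19 to 23 bases, and 146 rows carried a carp miRNA name. Length alone chose the 290 sequences, and neither their level nor their composition was used.

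Small RNA was sequenced from whole wild-type embryos and larvae of the FFRC No.2 strain, bred by natural spawning, and as far as the labels say the groups differ in age alone. With 3 libraries at each of 6 stages, the series began with cleavage embryos at 2 h after fertilization and blastocysts at 6 h. Gastrulation was sampled at 12 h, organ formation at 20 h and hatching at 64 h, and larvae were taken 1 day after they hatched. Equal amounts of RNA were pooled within a stage before sequencing. The labels do not say whether the 3 libraries of a stage come from separate pools. The p-values below therefore measure the spread between libraries, part or all of which may be technical. A whole embryo mixes all of its cell types, so fewer cells of a type and less RNA per cell cannot be told apart.

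A microRNA is cut from a hairpin precursor by Dicer and is usually a little shorter than the sequences described here. It recognises messenger RNAs mainly through its seed, bases 2 to 8 from the 5′ end, and its 3′ end is often extended or trimmed without a change of seed. PIWI-interacting RNAs, a second class of animal small RNA, are longer, are made without Dicer, are abundant in the germ line and are loaded into the egg in fish. Many of them begin with U, and their secondary partners tend to carry A at position 10. These are properties of the classes as known from other work. The files do not assign the 290 sequences to a class, a gene or a genome position, so they are named LS1 to LS290 here, in descending order of mean share over the stages.

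The sequences on which the results turn are printed 5′ to 3′ as deposited, with T for U, in lower case and with the seed in capitals. The first set held nearly all of the long counts, and is shown with a near-identical member and the 23-base predicted row that begins like LS2.
LS1: tGTAAACAtcctacactctcagct
LS2: tAGCTTATcagactggtgttgact
LS6: tAGCTTATcagactggtgttggct
23-base row: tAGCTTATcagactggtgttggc
The second set shares a start and a seed and differs at the 3′ end. It is shown because its members were listed at different stages.
LS4: aAAGTGCTatcaagttggggtaat
LS7: aAAGTGCTatcaagttggggtaaa
LS8: aAAGTGCTatcaagttggggtaaag
LS9: aAAGTGCTatcaagttggggtaaat
22-base row: aAAGTGCTatcaagttggggta
The third set was listed in all 3 cleavage libraries and was far lower in larvae.
LS5: gAGATGTActgtccttggacgagg
LS11: tTTGATTAttggacaccaggcacc
LS13: tATGTCGTtgcgtgggacccagga
LS17: tGGATACGtaggctctgtctcacc
LS18: tACTCGGGacgtgaattgtgggcc
LS23: tGAGAGTCgaacaccatgtggtgc
The last set is shown because the listing of its starts moved between lengths.
LS3: gATCGTGAtgaaactttaaccagt
LS10: aCCTGGCAtacaatgtagatttctgt
LS15: tCTCCCAAtccttgtaccagtgtc
23-base row with the start of LS15: tCTCCCAAtccttgtaccagtgt

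Library totals ran between 60779 and 8427601 listed counts, and the hatching and larval libraries were the deepest. No predicted row was listed below 5 counts in a library, which at counts scaled to a library of 1000000 (CPM) is 82.3 CPM in the shallowest library and 0.593 CPM in the deepest. An unlisted sequence therefore had fewer than 5 counts or was listed under another row, and the number of sequences listed depends on depth. Named rows of miR-430, a family that clears maternal messenger RNA in fish embryos, held 72.6% to 79.8% of counts at blastocyst, against 0.174% to 1.55% at cleavage. Every share of counts below is relative to a total that contains them.

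Cleavage embryos listed 63, 62 and 36 of the long sequences, and blastocysts 24, 35 and 31. At gastrulation 7, 12 and 10 were listed, and at organ formation 12, 6 and 9. At hatching 65, 51 and 52 were listed, and in larvae 26, 34 and 35. The cleavage libraries thus listed about as many as the far deeper hatching libraries. Counted only at 100 CPM or more, a floor above the listing limit of every library, there were 15, 23 and 8 at cleavage, 5, 6 and 6 at blastocyst, 5 in each library of gastrulae, 10, 6 and 6 at organ formation, 3, 2 and 2 at hatching and 2 in each larval library. The number at this floor differed among stages (F = 6.87, permutation test with 100000 relabellings, p = 0.00331), but not at a floor of 200 CPM (F = 2.51, permutation test, p = 0.0942). Long sequences made up 3.21% to 4.11% of all predicted rows listed in larvae, the lowest range of any stage, and 17.7% to 21.3% at cleavage, the highest.

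Their summed share of counts was 1.03%, 1.24% and 0.640% in the cleavage libraries. It was 0.135%, 0.332% and 0.347% at blastocyst, 0.252%, 0.277% and 0.227% at gastrulation, and 0.617%, 0.578% and 0.571% at organ formation. Hatching libraries held 1.07%, 1.25% and 0.981%, and larval libraries 0.780%, 0.873% and 0.713%. The share was therefore high at both ends of the series and low in the middle, and it differed among stages (F = 16.9, permutation test, p = 0.00011). With the miR-430 rows taken out of the total, the same permutation test gave F = 3.08 and p = 0.0550, so this difference among stages did not pass at 0.05.

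Stage means of the share were 0.972% ± 0.306, 0.271% ± 0.119, 0.252% ± 0.0250, 0.589% ± 0.0250, 1.10% ± 0.135 and 0.789% ± 0.0803 in developmental order (SD, n = 3 libraries each). Blastocyst lay below cleavage, organ formation above gastrulation, hatching above organ formation and larva below hatching with no overlap of the libraries. Each of these steps had an exact permutation p of 0.1, which is the smallest that 3 libraries against 3 can give. Gastrulation and blastocyst overlapped (exact permutation test, p = 0.9), as did larva and cleavage (exact permutation test, p = 0.4). All later libraries together averaged 0.600% ± 0.340 (SD, n = 15), against 0.972% ± 0.306 at cleavage (SD, n = 3), a difference of -0.372 percentage points that did not pass (two-sided exact permutation test, p = 0.0968). With miR-430 rows out of the total it was -0.0891 points (exact permutation test, p = 0.618), on the totals behind the TPM values -0.180 (p = 0.422, same exact test) and over rows of at least 10 counts -0.177 (p = 0.424, same exact test). Without cleavage library 3, the lowest of its stage, the difference was -0.538 points (exact permutation test, p = 0.0441), and without hatching library 2 it was -0.418 points (exact permutation test, p = 0.0471).

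**Figure D1:**
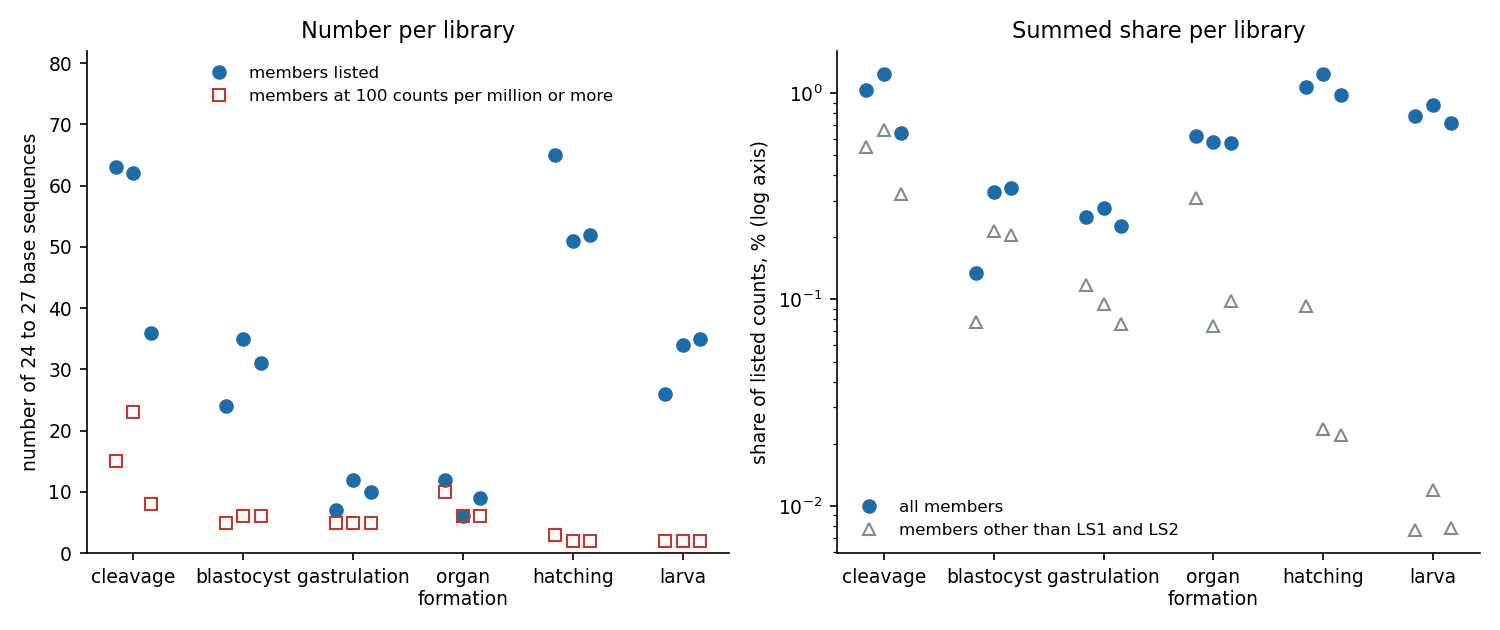
The left panel gives the number of long sequences listed in each library and the number at 100 CPM or more; the right panel gives their summed share of listed counts in percent on a log axis, with and without LS1 and LS2. Each point is 1 library, 3 for each stage in developmental order, and the share without LS1 and LS2 lies between 0.00760% and 0.0120% in larvae and between 0.325% and 0.661% at cleavage.

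LS1 and LS2 were listed in all 18 libraries and held 81.0% and 14.7% of all counts of the 290 sequences. They made up 46.8% to 49.2% of the long counts in cleavage embryos, 35.2% to 42.1% in blastocysts and 53.3% to 66.7% in gastrulae. The pair held 49.6% to 87.2% of them during organ formation, 91.3% to 98.1% in hatching embryos and 98.6% to 99.0% in larvae. The high share at hatching was thus carried by a pair of sequences, while at cleavage about the same total was spread over more sequences. The other sequences together held 0.550%, 0.661% and 0.325% of counts at cleavage and 0.0779%, 0.215% and 0.206% at blastocyst. At gastrulation they held 0.118%, 0.0949% and 0.0757%, at organ formation 0.311%, 0.0740% and 0.0985%, at hatching 0.0925%, 0.0236% and 0.0221%, and in larvae 0.00760%, 0.0120% and 0.00784%. These remainders were formed after the levels were seen and are given without a test.

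LS1 was the most abundant long sequence in each of the 18 libraries. It had 519, 464 and 239 counts at cleavage, 194, 357 and 493 at blastocyst, 146, 298 and 200 at gastrulation, and 152, 156 and 441 at organ formation. Hatching libraries had 54467, 51162 and 39389 counts, and larval libraries 38115, 46416 and 51202. As a share of counts this was 0.370% ± 0.129, 0.0846% ± 0.0353, 0.109% ± 0.0249, 0.253% ± 0.0609, 0.874% ± 0.123 and 0.675% ± 0.0674 over the 6 stages (SD, n = 3 each). The hatching libraries lay above those of every other stage without overlap. LS1 shares its 16-base start with a single other predicted row, of 22 bases, listed with 8 counts in larval library 3. That row lacks bases from within LS1 and is not LS1 with a trimmed end. Named rows carry no sequence in the count lists, so lengths of LS1 counted under a name could not be checked.

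LS2 had 137, 85 and 81 counts in cleavage embryos, 51, 76 and 127 in blastocysts, 97, 159 and 38 in gastrulae and 92, 150 and 226 during organ formation. Hatching embryos had 10717, 10390 and 8225 counts and larvae 5447, 7420 and 8240. Its share of counts, in developmental order, was 0.0902% ± 0.0107, 0.0204% ± 0.00859, 0.0470% ± 0.0204, 0.174% ± 0.0668, 0.177% ± 0.0251 and 0.104% ± 0.0124 (SD, n = 3 each). The level of LS2 at hatching was not separated from that at organ formation, unlike LS1. The ratio of LS1 to LS2 counts, which does not depend on the library total, was 4.07 ± 1.28, 4.13 ± 0.495, 2.88 ± 2.07, 1.55 ± 0.465, 4.93 ± 0.147 and 6.49 ± 0.441 in developmental order (SD, n = 3 each). The last 3 stages did not overlap each other, and hatching overlapped cleavage and gastrulation.

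The 23-base row that begins like LS2 was listed with 2969, 201 and 346 counts at cleavage, 320 and 133 in blastocyst libraries 2 and 3, 60, 387 and 453 at gastrulation, and 87 and 971 in organ formation libraries 2 and 3. It was listed in no hatching or larval library. LS6, which differs from LS2 by A22G (LS2 base, position from the 5′ end, LS6 base), was listed only in blastocyst library 1 with 84 counts and organ formation library 1 with 118, the libraries before hatching in which the 23-base row was not. Summed over every predicted row with this start, the level in CPM from cleavage to larva was 10037 ± 11140, 658 ± 383, 2056 ± 1135, 5005 ± 3075, 1773 ± 251 and 1043 ± 124 (SD, n = 3 each). The 23-base row is LS6 without its last base and also differs from LS2 at position 22, so this sum mixes distinct sequences. On this sum the ordering of the stages was unlike that of LS2 alone, and the cleavage libraries spread by more than their mean.

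T was the first base of 217 of the 290 sequences (74.8%), A of 44 (15.2%), G of 16 (5.52%) and C of 13 (4.48%). Among the 2452 shorter predicted rows the shares were 48.1% T, 26.3% A, 10.03% G and 15.5% C. T came first about equally often in long sequences listed in 1 library (75.5%) and in those listed in more (73.5%). In the cleavage libraries 87.3%, 93.5% and 88.9% of the listed long sequences began with T, with exact 95% binomial intervals that reached down to 76.5%, 84.3% and 73.9%. At blastocyst it was 87.5%, 85.7% and 74.2%, at gastrulation 42.9%, 50.0% and 50.0%, and at organ formation 58.3%, 50.0% and 55.6%. At hatching 63.1%, 70.6% and 69.2% began with T, and in larvae 50.0%, 44.1% and 57.1%.

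Early embryos had the highest share of T-first sequences, and the share differed among stages when each listed sequence was counted equally (F = 35.8, permutation test, p = 1e-05, the smallest that 100000 relabellings can give). Gastrulation averaged 47.6% and blastocyst 82.5%, a difference of -34.8 percentage points with no overlap of libraries (exact permutation test, p = 0.1). Larvae averaged 50.4%, against 89.9% at cleavage, also without overlap. Gastrulation and organ formation rest on 6 to 12 sequences per library, and their binomial intervals were wide, as from 11.8% to 88.2% in organ formation library 2.

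**Figure D2:**
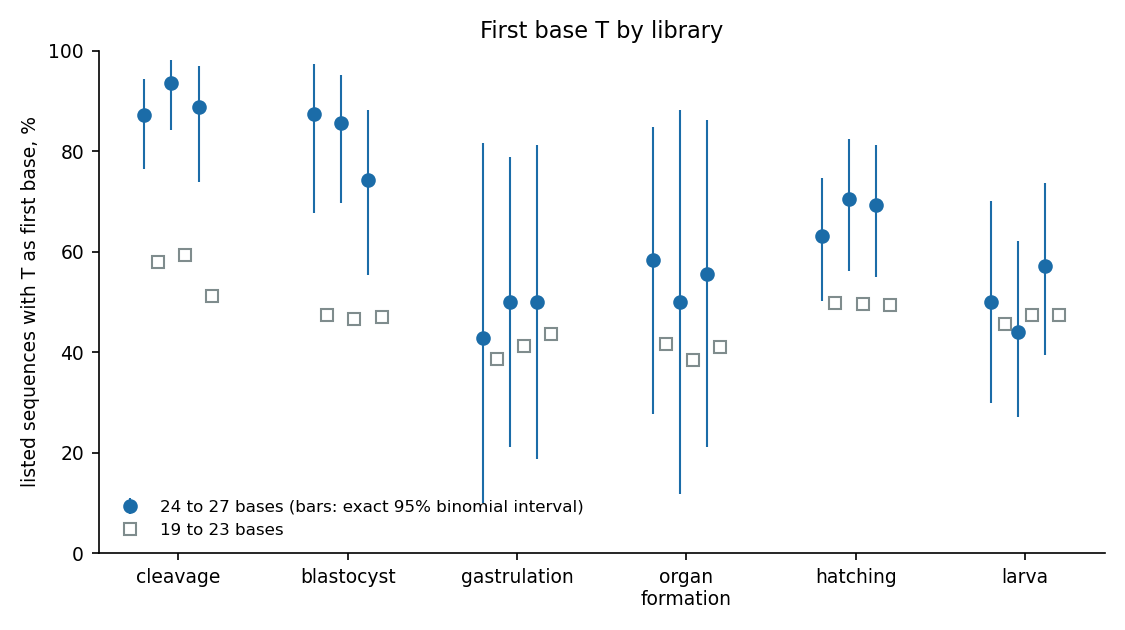
Percentage of listed sequences with T as the first base, for sequences of 24 to 27 bases (filled circles, bars are exact 95% binomial intervals) and of 19 to 23 bases (open squares) in each of 3 libraries per stage. The long sequences lie between 74.2% and 93.5% at cleavage and blastocyst, and only in larval library 2 do they lie below the shorter ones.

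Set against the shorter predicted rows of the same library, the long sequences began with T more often in 17 of 18 libraries. The mean difference was 18.6 percentage points (permutation test of the sign of the paired differences, p = 1e-05, the smallest possible). It was 11.2 points over rows with at least 10 counts (same permutation test, p = 0.0025) and 43.5 points weighted by counts (same permutation test, p = 1e-05). The weighted value includes LS1 and LS2, which both begin with T and held 81.0% and 14.7% of all long counts. The unweighted difference includes them too, since both were listed in all 18 libraries. At gastrulation 3, 6 and 5 of the 7, 12 and 10 listed long sequences began with T, LS1 and LS2 among them. With this pair left aside, the long sequences exceeded the shorter rows in no gastrulation library and not in organ formation library 2. Over the other long sequences, the T-first share of counts averaged above that of the shorter rows at cleavage (77.7% against 44.7%). At organ formation it averaged 34.0% against 24.4%, but only library 1 lay above its shorter rows (66.13% against 21.32%). Organ formation libraries 2 and 3 lay below theirs (17.78% against 22.26% and 17.99% against 29.68%). The T-first share averaged below at gastrulation (11.15% against 23.2%), hatching (33.3% against 50.5%) and larva (36.4% against 56.5%). At blastocyst it averaged slightly below (35.6% against 36.6%), with a wide spread between libraries. These averages are given without a test. With each listed sequence counted equally, the stages differed from their shorter rows, in developmental order, by 33.8 ± 4.22, 35.5 ± 7.12, 6.50 ± 2.26, 14.2 ± 2.57, 18.01 ± 4.21 and 3.59 ± 6.53 points (SD, n = 3 each). The size of the difference itself varied among stages (F = 23.2, permutation test, p = 3e-05). In larval library 2 the difference was -3.30 points. The permutation test of signs took the 18 libraries as independent, which libraries of the same stage may not be, so its p-values carry this limit.

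Length and first base went together below the 24-base limit as well, though only at cleavage and blastocyst through every length from 20 to 24 bases. At cleavage T came first in 32.1% ± 3.95 of 20-base rows, 43.3% ± 7.27 of 21-base rows, 63.5% ± 6.29 of 22-base rows, 79.2% ± 1.44 of 23-base rows and 89.7% ± 3.36 of 24-base rows (SD, n = 3 libraries). Blastocysts ran through 18.6% ± 2.02, 45.3% ± 0.608, 56.8% ± 3.75, 65.2% ± 6.07 and 85.5% ± 6.30 over the same lengths (SD, n = 3 libraries). At hatching 24-base rows stood at 68.0% ± 3.44 and 23-base rows at 51.7% ± 1.09, and in larvae 24-base rows stood at 50.4% ± 6.52 and 23-base rows at 46.1% ± 2.96 (SD, n = 3 libraries). The 22-base rows of these 2 stages, at 52.9% and 51.9%, did not lie below their 23-base rows. Between 23 and 24 bases the other 2 stages ran the other way. At gastrulation T came first in 47.6% ± 4.12 of 24-base rows and 58.8% ± 8.45 of 23-base rows. At organ formation it did so in 56.9% ± 6.37 of 24-base rows and 65.5% ± 7.29 of 23-base rows (SD, n = 3 libraries). Up to 23 bases both had risen, from 20.0% and 13.7% of 20-base rows. Rows just outside the length limit were thus already rich in T at cleavage, and the increase there ran through every length from 20 to 24 bases. The 24-base rows numbered 36 to 61 and the 23-base rows 31 to 63 in the cleavage libraries.

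**Figure D3:**
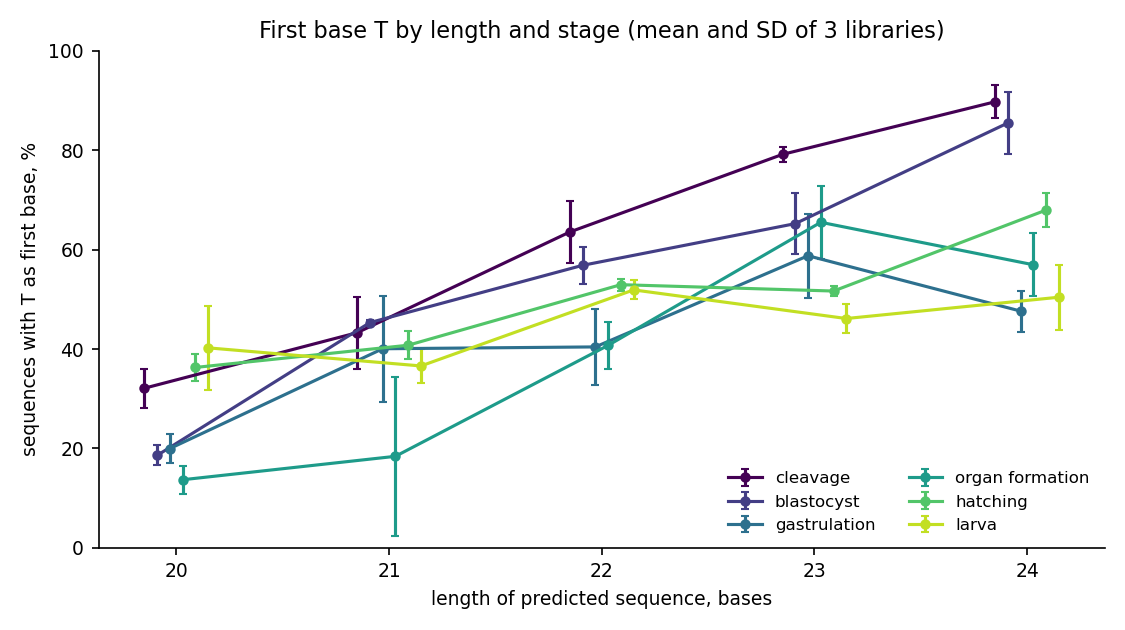
Percentage of predicted sequences with T as the first base (y) by sequence length in bases (x), 1 line for each stage, as mean and SD of 3 libraries. In larvae 24-base sequences stand at 50.4%, whereas at cleavage the line climbs from 20 bases through every length shown to 89.7% at 24 bases.

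Weighted by counts, the share of long counts beginning with T had another course, and LS1 and LS2 both begin with T. It was 86.4%, 93.9% and 85.0% in cleavage embryos, 79.2%, 52.0% and 50.8% in blastocysts and 56.4%, 69.5% and 72.0% in gastrulae. Organ formation libraries held 82.9%, 89.5% and 85.9%, hatching libraries 92.2%, 99.0% and 98.7%, and larval libraries 99.4%, 99.0% and 99.5%. This share also differed among stages (F = 12.2, permutation test, p = 0.00115). Blastocyst libraries 2 and 3 were low where LS4, LS8 and LS9, which begin with A, were listed. Over the sequences other than LS1 and LS2, T-first counts averaged 36.4% ± 13.5 in larvae and 77.7% ± 9.48 at cleavage (SD, n = 3 each, without a test).

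The long sequences listed differed between stages, and also between libraries of a stage. In any library of a stage, 133 were listed in cleavage embryos, 70 in blastocysts, 18 in gastrulae, 14 during organ formation, 113 in hatching embryos and 66 in larvae. Of the 133, 8 (6.02%) were listed in all 3 cleavage libraries, against 58 of 476 shorter rows (12.2%). At no other stage were 88 of the 133 listed (66.2%), against 226 of the 476 shorter rows (47.5%). T came first in 78 of these 88 (88.6%) and about equally often in the whole cleavage set, in 119 of 133 (89.5%). At hatching 52 of 113 long sequences (46.02%) and 35.5% of shorter rows were listed at that stage alone, and in larvae 42.4% of long sequences and 43.5% of shorter rows. Cleavage and blastocyst shared 29 sequences, which is 21.8% of the cleavage set and 41.4% of the blastocyst set. They shared 179 shorter rows, of 476 at cleavage (37.6%) and 325 at blastocyst. Hatching and larva shared 33 long sequences, which is 29.2% of the hatching set and 50.0% of the larval set. Shorter rows numbered 1334 at hatching, 1479 in larvae and 2003 in either, against 113, 66 and 146 long sequences. A larger part of the shorter rows was thus shared. LS1, LS2 and LS3 were the 3 sequences listed at every stage. Most sequences were rare: 192 of the 290 (66.2%) were listed in 1 library, against 52.8% of the shorter rows, 160 had at most 10 counts in all, and the median total was 9 counts.

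Composition beyond the first base was compared between 3 sets, the 133 long sequences listed at cleavage, the 112 listed at hatching or larva but not at cleavage, and the 476 shorter rows listed at cleavage. A stood at position 10 in 39.8% of the cleavage set, 25% of the later set and 25.6% of the shorter rows. Within the T-first sequences alone, A stood at position 10 in 46 of 119 cleavage sequences (38.7%), 16 of 64 later sequences (25%) and 79 of 276 shorter rows (28.6%). Among sequences with another first base it did so in 7 of only 14 cleavage sequences, 12 of 48 later sequences and 43 of 200 shorter rows. Library by library, A at position 10 was found in 36.5%, 40.3% and 47.2% of the long sequences at cleavage and in 23.3%, 24.7% and 21.8% of the shorter rows of the same libraries. At blastocyst the corresponding values were 41.7%, 48.6% and 41.9% of long sequences and 20.8%, 23.03% and 21.6% of shorter rows, and in larvae 30.8%, 23.5% and 25.7% of long sequences and 24.1%, 22.7% and 26.3% of shorter rows. The long sequences stood higher on average at the other stages too, with 25.9% ± 10.2 of long sequences and 17.0% ± 2.80 of shorter rows at gastrulation, 27.8% ± 9.62 and 13.8% ± 3.60 at organ formation, and 29.5% ± 6.77 and 23.96% ± 1.40 at hatching (SD, n = 3 libraries each). This position was examined because of its known role in the PIWI class, and the values are a description without a test. The cleavage set also had A at position 5 in 45.1% of sequences, against 34.8% of the later set and 29.4% of the shorter rows. Mean GC content was 52.0%, 48.7% and 48.2% in the 3 sets.

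**Figure D4:**
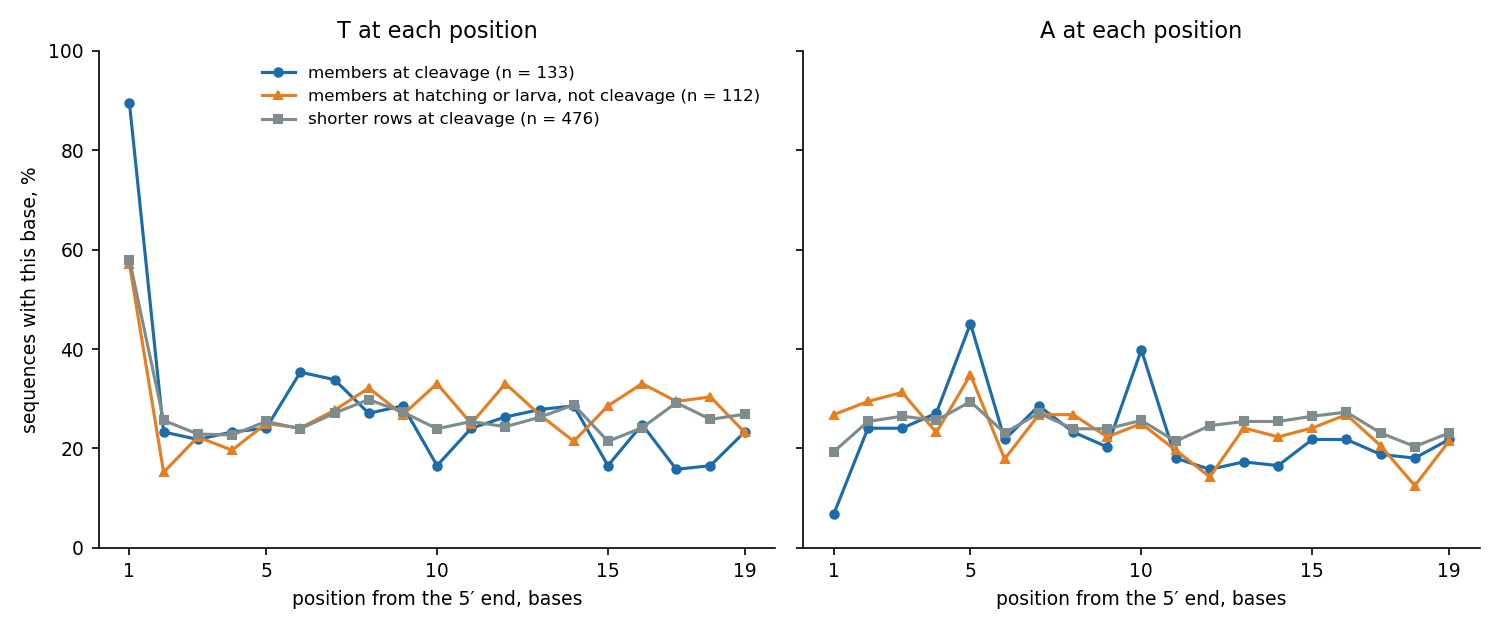
Percentage of sequences with T (left) and with A (right) at positions 1 to 19 from the 5′ end, for the 133 long sequences listed at cleavage, the 112 listed at hatching or larva but not at cleavage, and the 476 shorter rows listed at cleavage. The cleavage set stands at 89.5% T at position 1 and 39.8% A at position 10, where the other sets stand at 25% and 25.6%.

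Pairs of predicted rows whose 5′ ends were complementary were also counted, with at least 1 long sequence in each pair. A complementary stretch of exactly 10 bases between the 5′ ends, the geometry known for PIWI partners, was found in 2 pairs, against 59 at 7 bases, 16 at 8, 0 at 9 and 1 at 11. One of the 2 joined LS288, with 5 counts in larval library 3, to a shorter row with 8 counts in cleavage library 2. The other joined LS69, with 13 counts in cleavage library 2 and hatching library 3, to a shorter row with 9 counts in cleavage library 2. The number expected by chance was not worked out, so these counts are a description without a test. Longer stretches, which are not that geometry, were found as well. LS233, with 10 counts in hatching library 2, had 18 complementary bases with each of 2 shorter rows. A single pair with 20 complementary bases was found, LS220 with 24 counts in hatching library 1 and a 22-base row with 9 counts in hatching library 2, shown here with the complementary part in capitals.
LS220: TTGCATAGTCACAAAAATGAtcat
22-base row: TCATTTTTGTGACTATGCAAct

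Many long sequences were relatives of other rows. Of the 290, 73 (25.2%) shared their first 16 bases with another predicted row, against 28.1% of the shorter rows, and 61 began with a complete shorter row. Of their listings, 129 had no other row of the same start in that library and 71 had one. There were 268 different seeds, of which 19 were shared by more than 1 long sequence (41 sequences in all), and 116 long sequences shared a seed with a shorter row. The largest group had the seed AAGTGCT and held LS4, LS7, LS8, LS9 and LS20. LS1 shared its seed GTAAACA with LS163, which was listed in 6 libraries with 164 counts in all.

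The AAGTGCT group moved between lengths with stage. LS8 and LS9, of 25 bases, had 198 and 241 counts (LS8) and 191 and 236 counts (LS9) in blastocyst libraries 2 and 3 and were listed nowhere else. LS4 had 144 and 164 counts in the same libraries, 70, 81 and 24 at gastrulation, 15, 9 and 22 at organ formation, 196, 156 and 158 at hatching, and 39 and 71 in larval libraries 1 and 2. LS7, which differs from LS4 by T24A, was listed from gastrulation on, with 57, 62 and 18 counts there and 226, 146 and 165 at hatching. The 22-base row began at organ formation with 1575, 819 and 1497 counts, and had 10760, 5970 and 7791 at hatching. None of these rows was listed at cleavage. Over the whole start the level in CPM from blastocyst to larva was 1011 ± 877, 559 ± 253, 15066 ± 4765, 1567 ± 195 and 333 ± 219 (SD, n = 3 each). In larvae the 22-base row had 2557 counts in library 1 and was unlisted in libraries 2 and 3, where a 21-base row of the same start had 2554 and 637, so the listed length also differed between libraries of 1 stage.

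Other starts changed length between libraries of 1 stage. LS3 had 30 counts in cleavage library 3, 72, 44 and 67 at blastocyst, 64, 49 and 48 at gastrulation, 34, 18 and 59 at organ formation, 114 and 64 in hatching libraries 2 and 3 and 88 in larval library 2. In each of the 5 libraries without LS3 a 21- or 23-base row of the same start was listed in its place, with 27 to 182 counts. LS10, of 26 bases, was listed in hatching library 1 alone with 4692 counts, and its 22-base relative had 14 to 21 counts in 3 earlier libraries, 3170 counts in hatching library 3 and 2710, 2999 and 4682 in larvae. Of 11 pairs of long sequences that differed by 1 base, 7 were transitions and 4 transversions, 6 lay at position 20 or later, and 1 lay within the seed.

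Mean length of the long counts was 24.2 bases ± 0.178 at blastocyst and between 24 and 24.04 at the other stages (SD, n = 3). It differed among stages (F = 3.37, permutation test, p = 0.0352), but not with each sequence counted equally (F = 2.01, permutation test, p = 0.123) and not without blastocyst library 2 (F = 1.63, permutation test, p = 0.146) or library 3 (F = 1.62, permutation test, p = 0.147). Those are the libraries that hold LS8 and LS9.

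Changes between stages were tested with edgeR's quasi-likelihood test over all rows with enough counts, scaled by the trimmed mean of M values (TMM), with Benjamini-Hochberg adjustment over the 328 rows tested. Rows unlisted in a library entered this test as 0 counts. Of the 290 long sequences, 12 passed the filter on low counts: LS1, LS2, LS3, LS4, LS5, LS7, LS11, LS13, LS15, LS17, LS18 and LS23. A sequence that passed because it is high at 1 stage had to differ from the others, so the counts and medians below describe these 12, not the 290, and their distance from all rows is no result. TMM scaling and library totals gave unlike baselines: at blastocyst against cleavage the median of all rows was 0.02 on the log2 scale after TMM and -2.17 on library totals, with unlisted predicted rows set to 4 counts and absent named rows to 3. Medians below are given on the TMM scale with these bounds, over the rows listed at either stage. At organ formation against gastrulation the 2 medians were -0.66 and 1.06.

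In blastocysts against cleavage embryos 1 of the 12 was called higher and 0 lower, and 7.62% of all rows tested were called, 6.1% higher and 1.52% lower. The sequence was LS4 (adjusted p = 0.0258 by edgeR), unlisted in every cleavage library and in blastocyst library 1, and the call was lost without cleavage library 1, 2 or 3 or without blastocyst library 3. With unlisted libraries at 4 counts, LS4 was 6.95-fold higher at blastocyst on library totals, and the libraries of the stages overlapped. The median log2 difference was -0.47 over 10 long sequences, against 0.02 over 285 rows. LS1 averaged 846 CPM ± 353 at blastocyst and 3697 CPM ± 1291 at cleavage (SD, n = 3 each), with no overlap. After TMM its log2 fold change was 0.04 ± 0.31 (SE) and was not called, so the lower level of LS1 at blastocyst was seen on library totals alone. In gastrulae against blastocysts LS7 was called higher (adjusted p = 0.00224 by edgeR) and 0 were called lower, with 7.01% of all rows called, 3.05% higher and 3.96% lower. The medians were 0.15 over the 12 long sequences and 0.20 over 294 rows, while fitted changes had medians of -1.35 over the 12 and 0 over all rows. LS7 was unlisted at blastocyst, where LS8 and LS9 of the same start were listed in libraries 2 and 3.

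Between organ formation and gastrulation 0 of the 12 were called, 1 had an unadjusted p under 0.05, DESeq2 called 1, and 6.1% of all rows were called, 1.83% higher and 4.27% lower. The medians were -0.95 over 8 long sequences and -0.66 over 268 rows. LS1 averaged 2533 CPM ± 609 at organ formation and 1089 CPM ± 249 at gastrulation (SD, n = 3 each). Its log2 fold change after TMM was -0.50 ± 0.31 (SE), of the opposite sign and not called. At hatching against organ formation 27.1% of all rows were called, 18.3% higher and 8.84% lower, and 1 of the 12 was higher and 1 lower. LS1 rose, with 8741 CPM ± 1226 at hatching and 2533 CPM ± 609 at organ formation (SD, n = 3 each), by 1.99 ± 0.32 on the log2 scale after TMM (SE, adjusted p = 0.000865 by edgeR), and without the filter on low counts the call was lost (adjusted p = 0.314). The change was smaller with RLE size factors (1.16), DESeq2 (1.16), without cleavage library 1 (1.33) and without blastocyst library 1 (1.33). The medians were -4.67 over 11 long sequences and -0.20 over 303 rows, where the 4 counts of an unlisted sequence weigh far more in the shallow organ formation libraries, and fitted changes of the 12 had a median of the other sign, 1.09. The same comparison gave LS2 0.20 ± 0.53 on the log2 scale (SE, adjusted p = 0.831). LS15, with 5, 8 and 14 counts at organ formation and no listing at hatching, was called lower (adjusted p = 0.0168), but the 23-base row of the same start had 1628, 1207 and 1349 counts at hatching and was unlisted at organ formation, so the call is for the 24-base length alone. LS15 also passed the filter mainly through its organ formation counts, which by itself favours a call as lower.

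Between larva and hatching 0 of the 12 were called by edgeR and 0 by DESeq2, 5 had an unadjusted p under 0.05, and 0.305% of all rows were called. The medians were -1.07 over 11 long sequences and -0.36 over 295 rows. LS1 averaged 6751 CPM ± 674 in larvae and 8741 CPM ± 1226 at hatching (SD, n = 3 each). At larva against cleavage 0 of the 12 were called higher and 6 lower, where 61% of all rows were called, 31.1% higher and 29.9% lower. The 6 were LS5, LS11, LS13, LS17, LS18 and LS23. The median log2 difference was -7.21 over the 11 long sequences listed at either stage, against -0.55 over all 315 rows so listed. LS13, LS17, LS18 and LS23 passed the filter through their cleavage counts alone, and LS5 and LS11 would not have passed without theirs. That by itself sets such a median below 0 and favours calls of these 6 as lower. Their p-values are therefore no support for a fall beyond this choice.

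LS5 had 10 and 19 counts in larval libraries 1 and 2 and was unlisted in library 3, against 111, 45 and 54 counts at cleavage. Larval libraries held 5642188 to 8427601 counts in all and cleavage libraries 94306 to 135739. The level of LS5 was 1.60 CPM ± 1.53 in larvae and 608 CPM ± 183 at cleavage (SD, n = 3 each, unlisted as 0), or at least 345-fold lower in larvae with the unlisted library at 4 counts (adjusted p = 0.0155 by edgeR). It begins with G and had the highest mean level at cleavage after LS1 and LS2. LS11 was listed in 1 larval library with 7 counts, and had 27, 21 and 19 counts at cleavage, 203 CPM ± 18.3 (SD, n = 3). It was at least 264-fold lower in larvae (adjusted p = 0.00663 by edgeR).

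LS13, LS17 and LS23 were listed in no larval library. At cleavage they averaged 157 CPM ± 69.1, 114 CPM ± 43.0 and 74.2 CPM ± 31.6 (SD, n = 3 each), so that larvae were at least 259-fold, 187-fold and 122-fold lower. LS18 was listed in 1 larval library with 8 counts, and had 13, 8 and 10 counts at cleavage, at least 113-fold lower in larvae. Adjusted p-values for these 4 were between 0.00260 and 0.0148 (edgeR). Like those of LS5 and LS11, they carry the limit of the filter given above. At blastocyst each of the 6 was listed in 1 or 2 libraries, at 11.4 to 102 CPM. None of the 6 was listed at organ formation, and at gastrulation LS5 and LS11 were listed in library 2 alone, with 9 and 5 counts. Each of the 6 was listed in at least 1 hatching or larval library, at 0.896 to 5.56 CPM. Such levels lie below the listing limit of every gastrulation and organ formation library, which was 82.3 CPM in the shallowest. A loss and return therefore cannot be told from a steady low level. LS5, LS11, LS17, LS18 and LS23 share their start with no other predicted row, and the 23-base relative of LS13 was listed once, with 9 counts in hatching library 3.

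**Figure D5:**
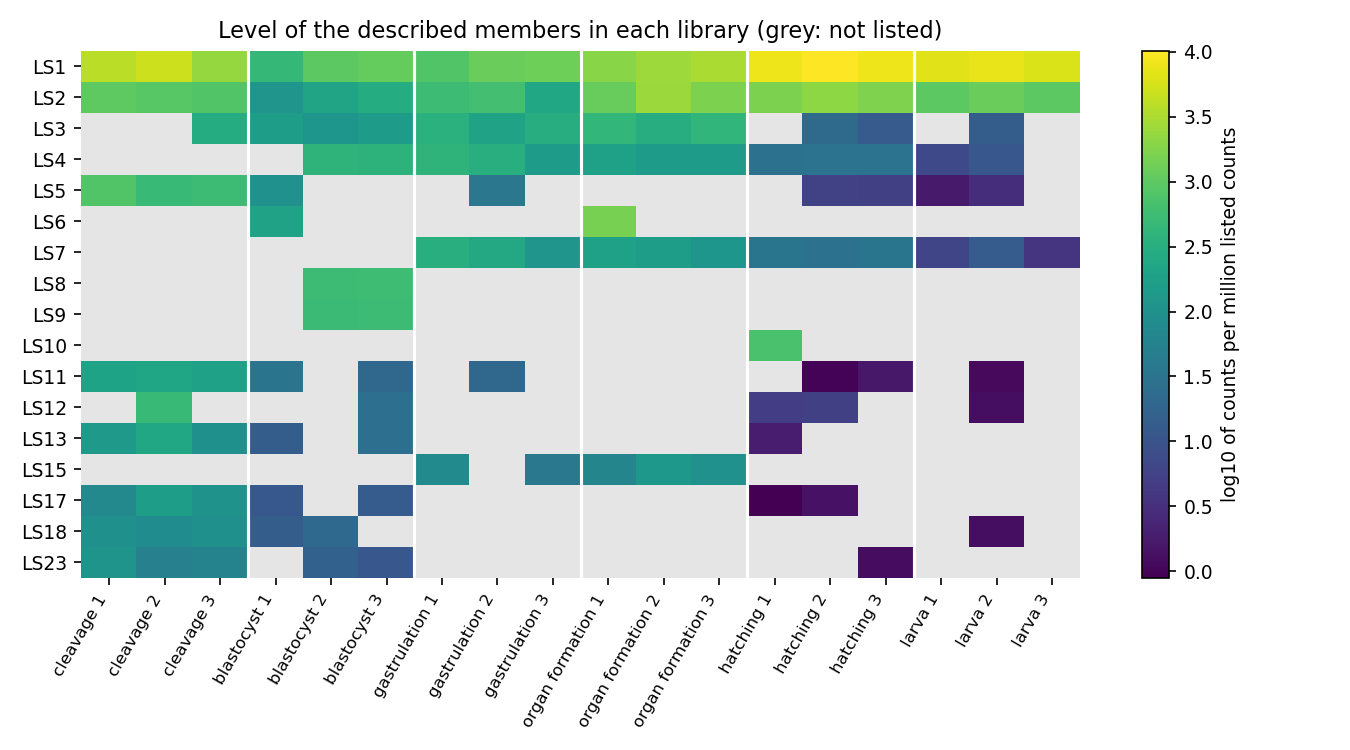
Level of the described long sequences (rows) in each of the 18 libraries (columns, 3 for each stage in developmental order) as log10 CPM, with grey for not listed. LS1 and LS2 are coloured throughout, LS8 and LS9 in blastocyst libraries 2 and 3 only, and LS5, LS11, LS13, LS17, LS18 and LS23 are dark or grey in larvae and bright at cleavage.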

How the data were processed

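Small RNA libraries of 6 stages, 3 each, were prepared from total RNA and read as 50-base single reads on an Illumina HiSeq instrument, per the labels. The authors deposited whole-number counts per row, 1 list for each library, and lists of TPM as deposited. The counts were analysed, and the TPM values served only for an alternative library total. The submitters' processing notes name FastQC and edgeR. The sources used here do not give the aligner, the genome build or the prediction program.

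Lists were joined by row name, and unnamed rows of 24 to 27 bases were taken. Shares are percentages of all counts listed in a library. The count test was edgeR 4.0.16 (glmQLFit and glmQLFTest, TMM, filterByExpr with a count minimum of 10, all 18 libraries in 1 fit, 12 residual degrees of freedom) in R 4.3.3, called at an adjusted p under 0.05. DESeq2 1.42.0 was an alternative. Single measures were tested by permutation over libraries (numpy 2.4.6), exactly for 2 stages and with 100000 relabellings across stages. The script was tested on simulated data. Intervals are exact Clopper-Pearson at 95% and take each listed sequence as 1 independent trial. They leave out the spread between libraries and the likeness of sequences that share a start.

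Described sequences were the 6 with the highest mean share, the top 2 of each stage, up to 2 called rises and 2 called falls with the largest change in each comparison, those listed in at least 15 libraries, and rows sharing their start or seed. LS10, LS11, LS18, LS23 and LS220 were added after their values were seen. The members and lists were chosen with earlier results of these data known. No genome was used, so no positions are given.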

Additional observations from a re-analysis of the deposited data

How the results depend on the processing

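The list of long sequences depends on depth, on the 5-count listing limit and on which length of a start was listed, which limits every statement on a single length. The test among stages of the share of counts lost its call with miR-430 rows out of the total (F = 3.084, permutation p = 0.0550), and that of the number of long sequences lost it at 200 CPM (F = 2.508, permutation p = 0.0942). Leaving out 1 library at a time, they gave F of 13.91 to 44.24 and 4.887 to 21.72. The T-first share of counts gave 10.09 to 40.07. The mean length lost its call with each sequence counted equally (F = 2.011), without LS1 (F = 1.78, permutation p = 0.284), with the replicate block (F = 3.548, permutation p = 0.0740) and without blastocyst library 2 or 3 (range 1.622 to 30.15). With 1 library left out, the difference between later stages and cleavage ran from -0.538 to -0.237 percentage points, passing without cleavage library 3 or hatching library 2 (exact permutation p = 0.0441 and 0.0471). The T-first difference from shorter rows ran from 17.3 to 19.9 points with 1 library left out, and the wider changes of both under other settings stand beside their values.

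Calls of long sequences at blastocyst against cleavage numbered 3 on library totals, 0 with the replicate block and 0 to 1 with 1 library left out. At organ formation against gastrulation there was 1 on library totals and 1 with DESeq2. At hatching against organ formation there was 1 without the filter, 4 with DESeq2, 1 with the replicate block and 2 to 3 with 1 library left out. Without the filter LS1 missed the threshold there (log2 fold change 1.42, adjusted p = 0.314 by edgeR), as did LS18 at larva against cleavage (adjusted p = 0.0535). With the replicate block LS4 (adjusted p = 0.0502) and LS15 (adjusted p = 0.0544) missed it. At larva against cleavage 6 to 7 were called with 1 library left out. Among the changes called in the report none turned its sign. LS1, not called there, was lower on library totals at blastocyst against cleavage but without a clear direction on TMM. At organ formation against gastrulation it had opposite signs on TMM and on library totals. The cause of these changes was not tested.

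Replicate numbers did not pair the samples: deviations of same-numbered libraries correlated at 0.0137 on average, from -0.248 to 0.361, with 6 of 45 pairs over 0.1, and 7 of 18 libraries lay closest to their own number. With the replicate block over the 3 numbers the T-first difference was 18.6 points (exact permutation p = 0.25, the smallest that 3 numbers can give).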
